A study of Mus musculus with 7 samples.

Results

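The potassium channel genes of the mouse are those whose symbol begins with Kcn, and 67 rows of the deposited expression table, out of 15967, carry such a symbol. They were measured by sequencing poly-A RNA of the sinoatrial node, the pacemaker region of the right atrium, from Sv129 mice 3 weeks after birth. The library here called the Cre library came from Baf250af/f;Hcn4CreERT2 mice, 6 days after tamoxifen. The control library came from Baf250af/f mice, which carry the same floxed alleles without the recombinase, and whether they received tamoxifen is not given in the sources used here. Hcn4CreERT2 places the tamoxifen-dependent recombinase under the Hcn4 gene of pacemaker cells, and Baf250a, whose symbol is Arid1a, encodes a DNA-binding subunit of the BAF chromatin remodelling complex. There was 1 library per genotype, the number of animals in it is not stated, and no test between genotypes was possible. The other 5 samples of the series were not analysed here. A gene was taken as measured when its mean over both libraries was at least 1 FPKM (fragments per kilobase of transcript, scaled to the mapped fragments of the library), and 40 Kcn rows met this. Differences are log2 ratios of FPKM + 1, Cre over control, and a gene counts as higher or lower where that ratio reaches 2-fold in either direction.

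Potassium channels carry the outward current that ends the action potential and holds the resting potential. They fall into voltage-gated channels of tetramers with a voltage sensor (Kcna to Kcnd, Kcnh, Kcnq), inward rectifiers without one (Kcnj), leak channels with a pair of pore domains in each subunit (Kcnk), and channels opened by calcium or sodium (Kcnm, Kcnn, Kcnt). Kcnab, Kcne, Kcnip and Kcnmb genes encode auxiliary subunits that change the gating or the trafficking of a pore. In pacemaker cells the acetylcholine-gated channel built from Kcnj3 and Kcnj5 slows the rhythm when the vagus nerve is active, and the delayed rectifiers of Kcnh2 and Kcnq1 repolarize the cell.

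The 2 libraries stood apart in more than genotype. Arid1a had 12.3 FPKM in the Cre library and 34.9 FPKM in the control library, a gene-level value that also counts exons outside the floxed part. All 15 T cell and thymus markers were at least 2-fold lower in the Cre library, with a summed level of 8.68 FPKM against 3179 FPKM in the control library, and all 12 cell cycle markers were lower (102 against 962 FPKM). All 11 lung and airway markers were higher (18679 against 4202 FPKM). Xist was at 93.2 FPKM in the Cre library and 0.379 FPKM in the control library, and the Y-linked Eif2s3y at 0.118 and 85.8 FPKM, so sex and genotype cannot be told apart. The defining node gene Hcn4 was weak in both libraries, at 0.719 FPKM in the Cre and 0.605 FPKM in the control library, and Shox2 had 1.26 and 1.20 FPKM. In whole tissue, fewer cells of a type and less RNA per cell cannot be told apart.

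The promoters below belong to Kcnj5 and Kcnmb2, which were higher in the Cre library, and to Kcna3 and Kcnn4, which had the lowest ratios. Each run gives the 250 bases before the transcription start, on the strand of the gene, from RefSeq (GRCm38.p6). Of the 40 measured genes 30 had an entry, and those without one included Kcna1, Kcne1, Kcng2, Kcnh3, Kcnj11, Kcnk3, Kcnk6, Kcnn2 and Kcnq1. Capitals mark matches on either strand to 4 cores. The NK2 core, of homeodomain factors such as Nkx2-5, is AAGTG. The GATA core, read by the zinc-finger family of that name, is written AGATAA here. The T-box core is AGGTGT. The RUNX core is TGTGGT.
Kcnj5, chr9:32344345-32344594, minus strand: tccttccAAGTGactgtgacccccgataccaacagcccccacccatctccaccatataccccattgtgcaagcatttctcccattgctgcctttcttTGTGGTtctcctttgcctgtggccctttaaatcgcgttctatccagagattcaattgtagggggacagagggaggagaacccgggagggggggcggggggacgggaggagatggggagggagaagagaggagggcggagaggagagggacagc
Kcnmb2, chr3:31902453-31902702, plus strand: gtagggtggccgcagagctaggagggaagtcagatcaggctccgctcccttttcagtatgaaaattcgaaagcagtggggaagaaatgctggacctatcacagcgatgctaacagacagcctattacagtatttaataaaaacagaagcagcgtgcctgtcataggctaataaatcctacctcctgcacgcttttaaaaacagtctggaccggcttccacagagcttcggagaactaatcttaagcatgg
Kcna3, chr3:107035912-107036161, plus strand: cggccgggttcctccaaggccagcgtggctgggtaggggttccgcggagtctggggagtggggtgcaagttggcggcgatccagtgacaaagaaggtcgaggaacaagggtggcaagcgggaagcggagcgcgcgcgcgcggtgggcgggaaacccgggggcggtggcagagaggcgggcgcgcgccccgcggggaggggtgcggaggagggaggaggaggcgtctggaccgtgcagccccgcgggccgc
Kcnn4, chr7:24370013-24370262, plus strand: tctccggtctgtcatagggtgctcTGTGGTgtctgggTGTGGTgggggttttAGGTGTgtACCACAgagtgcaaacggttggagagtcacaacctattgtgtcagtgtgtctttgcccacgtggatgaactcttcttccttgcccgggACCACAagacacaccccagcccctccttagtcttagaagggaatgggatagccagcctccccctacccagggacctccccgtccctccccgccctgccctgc
The Kcnn4 window holds the RUNX core in both orientations and the T-box core once. The Kcnj5 window holds the NK2 core 243 to 239 bases before the start and the RUNX core 153 to 148 bases before it, and the Kcnmb2 and Kcna3 windows hold none of these letters. Among 32851 mouse promoter windows of this length 40.7% hold the NK2 core, 9.99% the GATA core, 11.8% the T-box core and 14.1% the RUNX core. Among the 43 windows of the measured Kcn genes, 16 hold the NK2 core, 1 the GATA core, 6 the T-box core and 4 the RUNX core. These matches describe the letters only and say nothing of binding.

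In the Cre library 9 of the 40 measured Kcn genes were higher by 2-fold or more, where 6.08% of 13408 measured genes were, and 5 were lower, where 10.4% of all genes were. The remaining 26 lay between. The median log2 ratio was 0.66 over the Kcn genes and -0.07 over all genes, and became -0.37 and -1.10 with the ratios centred on the median of 16 cardiac muscle markers. Above equal expression lay 34 of the 40, where 46% of all genes did, and 8 of the 40 after that centring. After the centring the split of the Kcn genes turned to 1 higher, Kcne1, and 6 lower. Expressed as TPM plus 1 it was 15 higher and 5 lower, and over all genes 1104 higher and 1467 lower. This setting changed the scaling and the pseudocount together, since 1 TPM was worth 0.485 FPKM in the Cre library and 0.497 FPKM in the control library. Scaling to equal totals alone left 9 Kcn genes higher and 5 lower, and a pseudocount of 0.5 FPKM alone gave 12 and 5. After scaling to a common upper quartile, 12 Kcn genes were higher and 5 lower, while the split over all genes turned from 815 higher and 1397 lower to 1297 higher and 1087 lower, the median of all genes moving by 0.20. The centring on cardiac muscle markers, which lowers every ratio by 1.03, left 49 of all genes higher and 7486 lower. The minimum used both libraries, so it kept 3 genes that were under 1 FPKM in the Cre library and 7 that were under it in the control library, and 8 of these 10 were among the 14 counted as higher or lower. Of the 30 genes with both libraries at 1 FPKM or above, 4 were higher and 2 lower, where 4.93% and 8.24% of the 12457 such genes in the whole table were. With a pseudocount of 5 FPKM the higher genes were Kcne1 and Kcnj11 and the lower ones Kcna3 and Kcnn4. None of the 67 rows was called significant in the authors' deposited table, where 0.564% of all rows were. In the authors' deposited table an unadjusted p-value under 0.05 stood beside 7 of the 67, and beside 6.03% of all rows. That table compares 2 libraries and not the genotypes.

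**Figure D1:**
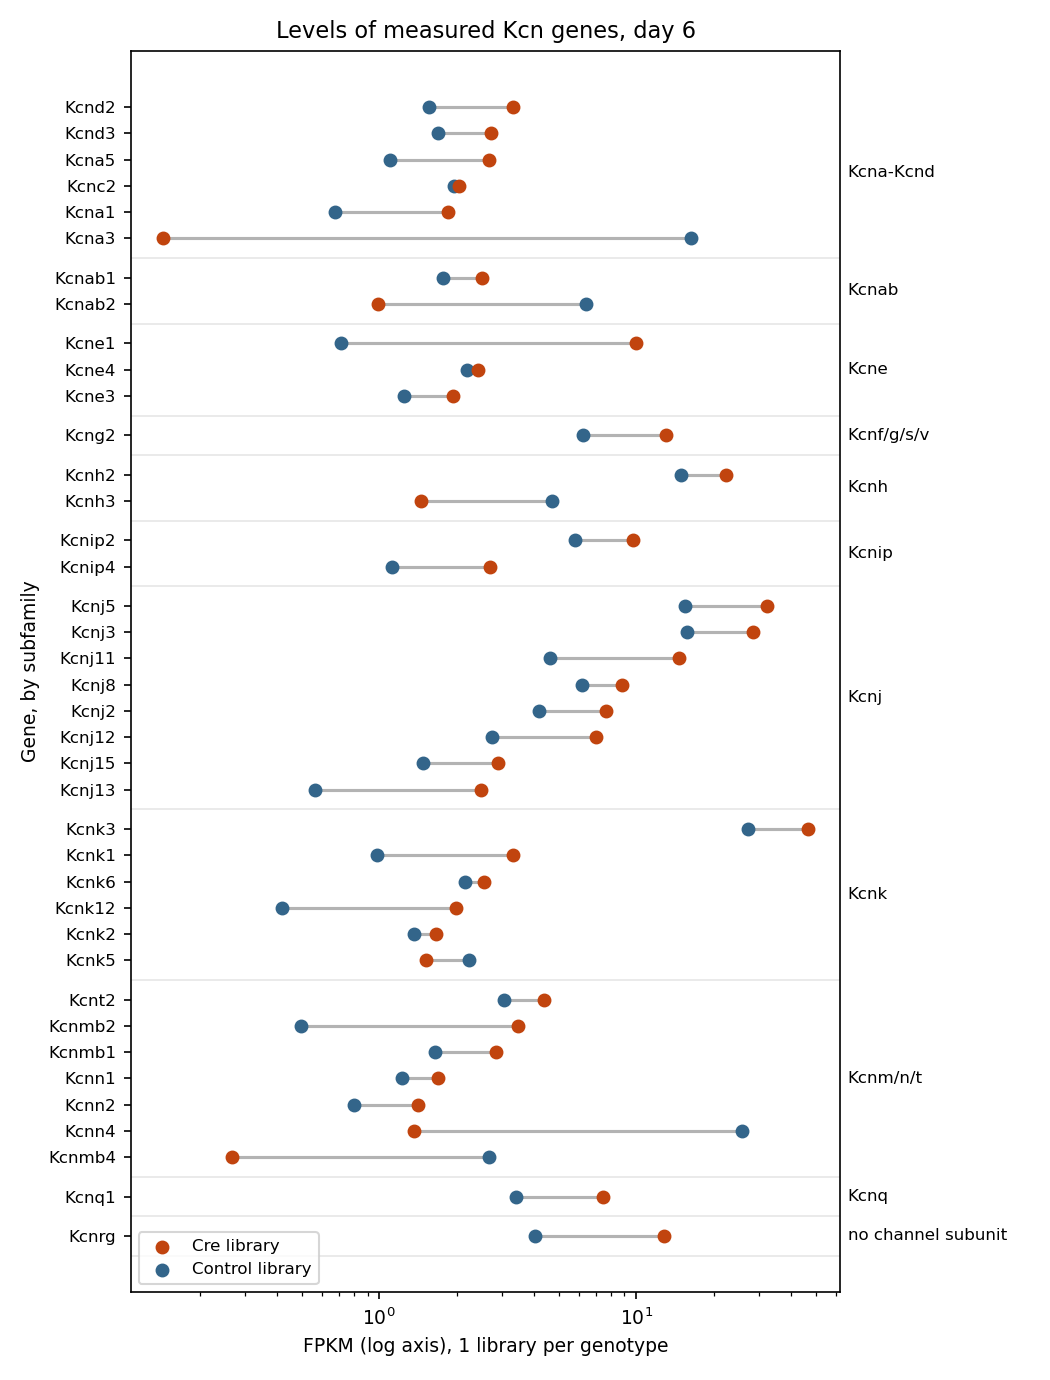
FPKM of 39 of the measured Kcn genes (log axis) in the Cre library (orange) and the control library (blue), 1 library each, grouped by subfamily and joined by a line. Kcnk3 is the highest gene in both libraries, and Kcna3, Kcnn4, Kcnab2, Kcnmb4, Kcnh3 and Kcnk5 are the genes that lie lower in the Cre library before any centring.

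Among the 40 genes kept by the minimum, the order of the levels was only partly the same in both libraries. Per unit of transcript length, Kcnk3 was the highest Kcn gene in both, and Kcnj5, Kcnj3 and Kcnh2 ranked 2, 3 and 4 in the Cre library. Kcnn4 and Kcna3 ranked 37 and 40 in the Cre library and 2 and 3 in the control library. Across the 40 genes Spearman's rho between the libraries was 0.289, and Pearson's r of log2 FPKM + 1 was 0.49. These describe genes that share both libraries. The minimum used the mean of the same libraries and kept 10 genes with 1 library under 1 FPKM, which can lower rho. No rho over all measured genes was computed for comparison. Most Kcn genes were weak: 26 of the 40 had a mean under 5 FPKM and 5 had a mean of at least 10 FPKM. The summed level of the 40 was 280.3 FPKM in the Cre library and 197.9 FPKM in the control library.

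Inward rectifiers made up the largest part of the sum. The 8 measured Kcnj genes summed to 104 FPKM in the Cre library and 50.9 FPKM in the control library, and all 8 lay above equal expression, of which 3 remained above it after centring on cardiac muscle markers. Kcnj5, a subunit of the acetylcholine-gated channel, had 32.2 FPKM in the Cre library and 15.4 FPKM in the control library. Its log2 ratio of 1.02 lay just past 2-fold, and it became -0.017 after that centring. Kcnj3, its partner in the same channel, had 28.4 FPKM in the Cre library and 15.7 FPKM in the control library. The Kcnj3 log2 ratio of 0.81 stayed under 2-fold. It passed 2-fold with the same upper quartile and became -0.22 after that centring. The pair was present in nearly equal amounts, with a Kcnj5 to Kcnj3 ratio of 1.13 in the Cre library and 0.98 in the control library.

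ATP-sensitive channels open when cellular energy falls, and are built from Kcnj11 or Kcnj8 with a sulphonylurea receptor. Kcnj11 had 14.6 FPKM in the Cre library and 4.61 FPKM in the control library. Its log2 ratio was 1.48 (p = 0.0736 and q = 0.905 in the authors' deposited table). Kcnj8, the pore of vascular smooth muscle and pericytes, had 8.83 FPKM in the Cre library and 6.18 FPKM in the control library, giving a log2 ratio of 0.45. The order of these 2 pores therefore differed between the libraries, with 1.66 units of Kcnj11 per unit of Kcnj8 in the Cre library and 0.747 in the control library. The receptor genes Abcc9 and Abcc8 had 18.0 and 15.5 FPKM in the Cre library and 5.40 and 4.47 FPKM in the control library, with log2 ratios of 1.57 and 1.60. Abcc9 per unit of both pores was 0.767 in the Cre library and 0.501 in the control library, a ratio that leaves Abcc8 out. Of the smooth muscle and pericyte markers other than channel genes, 10 of 11 lay above equal expression, where 46% of all measured genes did. They summed to 1180 FPKM in the Cre library and 720 FPKM in the control library. Their median log2 ratio was 0.78 before centring on cardiac muscle markers, which lowers every ratio by 1.03. Other lists did the same, with 16 of 16 cardiac muscle and 8 of 8 endothelial markers above equal expression, but 0 of 15 T cell and thymus markers. The part of these cell types in the result was not tested.

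The remaining inward rectifiers include the channels of the resting potential. Kcnj2, the main one of ventricular muscle, had 7.63 FPKM in the Cre library and 4.20 FPKM in the control library. Kcnj12, which can join it in one channel, had 6.98 FPKM in the Cre library and 2.75 FPKM in the control library, giving a log2 ratio of 1.09 that passed 2-fold. Kcnj12 was thus closer to Kcnj2 in the Cre library, at 0.914 units per unit, than in the control library, at 0.656. Kcnj15 and Kcnj13 are better known from epithelia. Kcnj13 had 2.49 FPKM in the Cre library and 0.563 FPKM in the control library, and its locus overlaps Gigyf2, which had 11.7 and 15.9 FPKM, so reads may be shared. Kcnj15 had 2.89 FPKM in the Cre library and 1.47 FPKM in the control library. Markers of lung and airway epithelium were all higher in the Cre library, and their part in these 2 genes was not tested.

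**Figure D2:**
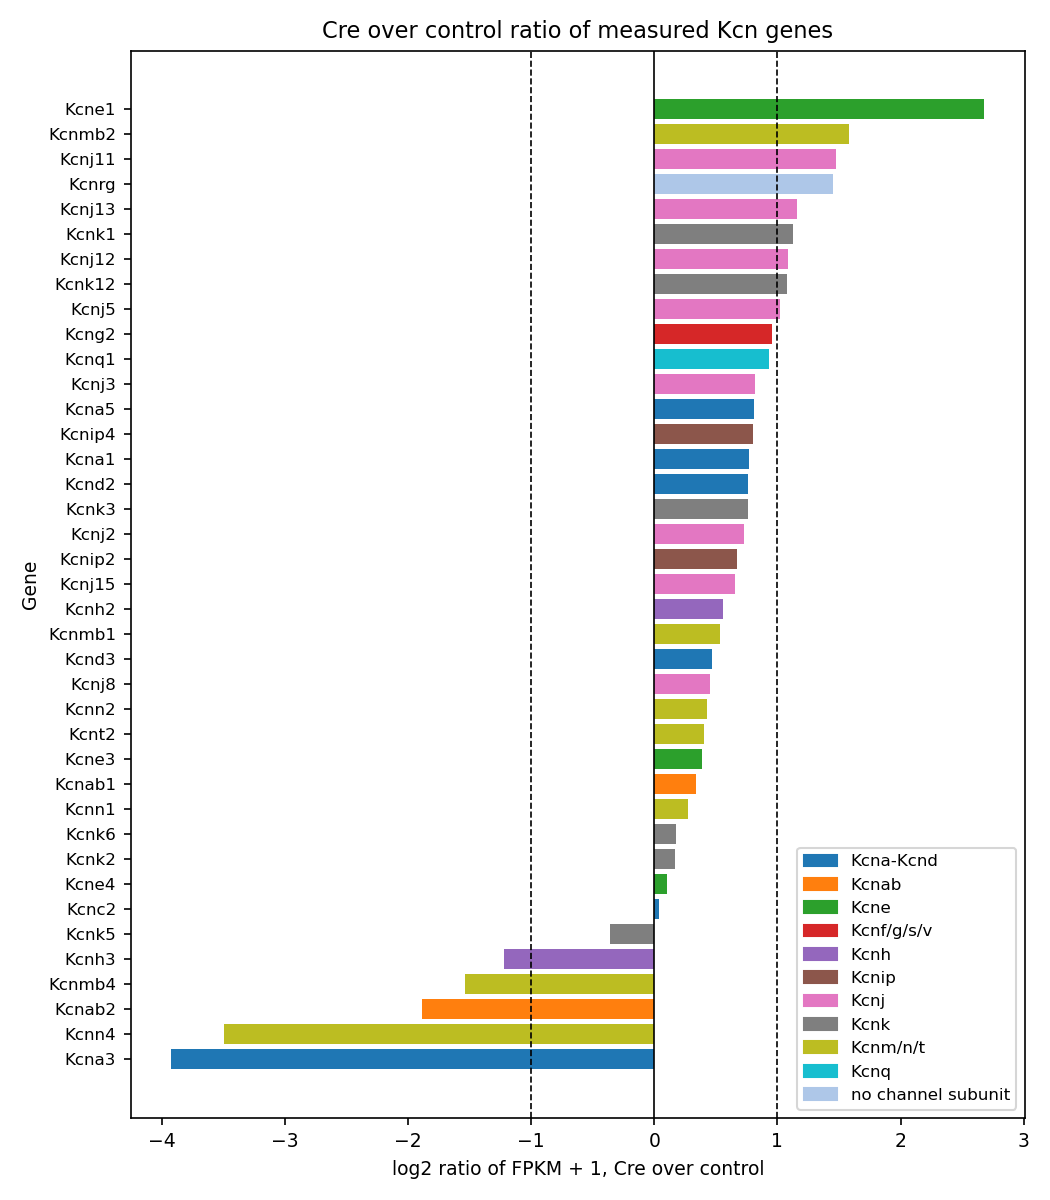
Log2 ratio of FPKM + 1, Cre over control, of 39 of the measured Kcn genes, coloured by subfamily, with dashed lines at 2-fold and 1 library per genotype. On this uncentred scale 9 bars pass the upper line, led by Kcne1 at 2.68, and 5 pass the lower line, down to Kcna3 at -3.92.

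Kcne1 had the highest ratio of the measured Kcn genes. Kcne1, the single-span subunit that slows the opening of Kcnq1 channels to give the slow delayed rectifier, had 9.96 FPKM in the Cre library and 0.711 FPKM in the control library, a ratio of 14-fold in FPKM and of 2.68 on the log2 scale of FPKM + 1. In the authors' deposited table its p-value was 0.00325 and its q-value 0.164. It ranked 8 among the measured Kcn genes in the Cre library and 36 in the control library. Its control value was under the minimum of 1 FPKM, so it counted as measured only through the Cre library. It remained at least 2-fold higher in all 7 settings that recompute single genes at that threshold. These settings rework the same 2 values and add no further measurement. After the centring on cardiac muscle markers its ratio was 1.65. The pore gene Kcnq1 had 7.39 FPKM in the Cre library and 3.40 FPKM in the control library. Its log2 ratio of 0.93 lay just under 2-fold. It passed 2-fold with pseudocounts of 0.1 and 0.5 FPKM (1.10 and 1.02), the same upper quartile (1.12) and TPM plus 1 (1.05). After the centring it was -0.10. Kcne1 per unit of Kcnq1 was 1.35 in the Cre library and 0.209 in the control library. The Kcnq1 locus (mm9 chromosome 7, 150293158 to 150612947 in the deposited table) also holds the antisense RNA Kcnq1ot1, at 0.338 FPKM in the Cre library and 0.559 FPKM in the control library. The strand setting is not given in the sources used here, so reads of these 2 cannot be told apart.

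The other Kcne genes differed less than Kcne1. Kcne4, which inhibits Kcnq1 when expressed with it, had 2.42 FPKM in the Cre library and 2.19 FPKM in the control library. Kcne3, which keeps Kcnq1 open in epithelia, had 1.94 FPKM in the Cre library and 1.25 FPKM in the control library. Kcne1 therefore took 69.5% of the Kcne sum in the Cre library and 17.1% in the control library, where Kcne4 led with 52.7%. Kcne2, which lies 47.9 kb from Kcne1 on chromosome 16, was not measured, with 0.282 FPKM in the Cre library and 0.150 FPKM in the control library.

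**Figure D3:**
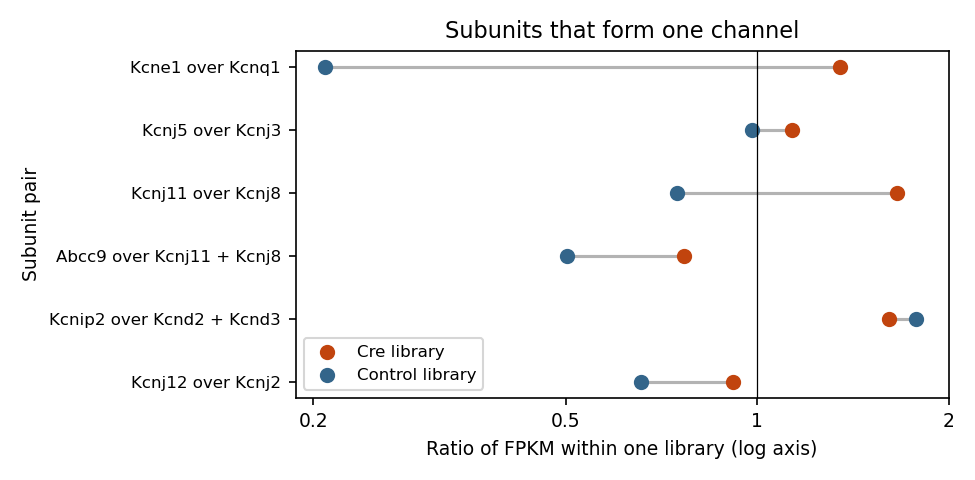
Ratio of the FPKM of one subunit to that of its partner or partners within one library (log axis), in the Cre library (orange) and the control library (blue). Kcne1 over Kcnq1 is the widest pair, at 1.35 against 0.209, with Kcne1 under 1 FPKM in the control library. Kcnj5 over Kcnj3 is at 1.13 against 0.98.

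Kcnh2, the pore of the rapid delayed rectifier, was among the highest Kcn genes in both libraries, with 22.5 FPKM in the Cre library and 14.9 FPKM in the control library. Its log2 ratio was 0.56, and -0.48 after centring on cardiac muscle markers. Kcnh3, a channel of forebrain neurons, lay the other way, with 1.45 FPKM in the Cre library and 4.72 FPKM in the control library and a log2 ratio of -1.22. The Kcnh3 locus overlaps Mcrs1, which had 31.9 FPKM in the Cre library and 36.3 FPKM in the control library, so the Kcnh3 values are uncertain.

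Of the voltage-gated Kcna to Kcnd genes, Kcnd2, Kcnd3 and Kcna5 are known from heart muscle. In FPKM + 1 they lay above equal expression without passing 2-fold, but below equal expression after centring on cardiac muscle markers. Kcnd2 passed 2-fold with a pseudocount of 0.1 FPKM, at 1.05. Kcnd2 and Kcnd3, the pores of the transient outward current, had 3.33 and 2.71 FPKM in the Cre library and 1.56 and 1.69 FPKM in the control library. Kcnip2, the calcium-binding subunit that brings these pores to the membrane, had 9.74 FPKM in the Cre library and 5.76 FPKM in the control library. The Kcnip2 log2 ratio was 0.67, and -0.37 after that centring. Kcnip2 per unit of both pores was similar in the libraries, at 1.61 in the Cre and 1.77 in the control library. Kcna5, the ultrarapid delayed rectifier of the atrium, had 2.67 FPKM in the Cre library and 1.10 FPKM in the control library. Its log2 ratio of 0.81 passed 2-fold with a pseudocount of 0.1 FPKM. It was 1.02 in TPM plus 1, 0.83 with equal totals alone and 0.99 with a pseudocount of 0.5 FPKM alone. Kcng2, a subunit that is silent alone and alters the channels it joins, had 13.1 FPKM in the Cre library and 6.23 FPKM in the control library. The Kcng2 log2 ratio was 0.96, and -0.07 after that centring. Among genes better known from neurons, Kcna1 had log2 0.77 (1.86 FPKM in the Cre and 0.674 FPKM in the control library), Kcnip4 0.80 (2.70 and 1.13 FPKM) and Kcnc2 0.04 (2.04 and 1.96 FPKM).

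The lowest ratios belonged to Kcna3 and Kcnn4, which encode the voltage-gated and the calcium-activated potassium channel of T lymphocytes. Kcna3 had 0.144 FPKM in the Cre library and 16.4 FPKM in the control library, giving a log2 ratio of -3.92 (p = 0.0045 and q = 0.198 in the authors' deposited table). Kcnn4 had 1.37 FPKM in the Cre library and 25.7 FPKM in the control library, giving a log2 ratio of -3.50 (p = 0.0017 and q = 0.117 in the authors' deposited table). Kcna3 alone made up 0.924% of the Kcna to Kcnd sum in the Cre library and 66.7% in the control library. The Kcnm, Kcnn and Kcnt sum includes the auxiliary Kcnmb genes. Kcnn4 made up 8.85% of that sum in the Cre library and 72.2% in the control library. Kcna3 and Kcnn4 differed together with the T cell and thymus markers. Of those markers, Lck, the kinase of the T cell receptor, had 0.682 FPKM in the Cre library and 290.2 FPKM in the control library. Cd4 had 0.829 and 144 FPKM. No marker of that list was at 0 in either library, but no row with a completed comparison held a value of 0. The part of these cells in the channel values was not tested.

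Kcnab2 and Kcnmb4, both auxiliary subunits, were also lower. Kcnab2, which binds Kcna pores, had 0.993 FPKM in the Cre library and 6.36 FPKM in the control library. Its log2 ratio was -1.88 (p = 0.0208 and q = 0.521 in the authors' deposited table). Kcnab1, its relative, had 2.50 FPKM in the Cre library and 1.76 FPKM in the control library, so that Kcnab1 took 71.6% of the Kcnab sum in the Cre library and 21.7% in the control library. Kcnmb4, which slows the large calcium-activated channel of neurons, had 0.267 FPKM in the Cre library and 2.68 FPKM in the control library. Its log2 ratio was -1.54 (p = 0.0485 and q = 0.764 in the authors' deposited table). Its locus overlaps 1700058G18Rik, which had 0.099 FPKM in the Cre library and 1.08 FPKM in the control library.

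Kcnmb2 went the other way from Kcnmb4. Kcnmb2, which gives the large calcium-activated channel fast inactivation, had 3.48 FPKM in the Cre library and 0.496 FPKM in the control library. Its log2 ratio was 1.58 (p = 0.0273 and q = 0.597 in the authors' deposited table). Kcnmb1, the form of smooth muscle, had 2.84 FPKM in the Cre library and 1.65 FPKM in the control library. Its row runs from 33529340 to 33893193 on mm9 chromosome 11, and whether all of it belongs to Kcnmb1 was not checked. The pore gene for these subunits, Kcnma1, was not measured, with 0.655 FPKM in the Cre library and 0.569 FPKM in the control library. The small-conductance genes Kcnn1 and Kcnn2 had 1.69 and 1.41 FPKM in the Cre library and 1.23 and 0.796 FPKM in the control library. Kcnt2, a sodium-activated channel, had 4.38 FPKM in the Cre library and 3.06 FPKM in the control library. None of Kcnmb1, Kcnn1, Kcnn2 and Kcnt2 passed 2-fold, and the loci of Kcnn2 and Kcnt2 overlap other rows, A330093E20Rik and 4930590L20Rik, which were under 1 FPKM in both libraries.

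**Figure D4:**
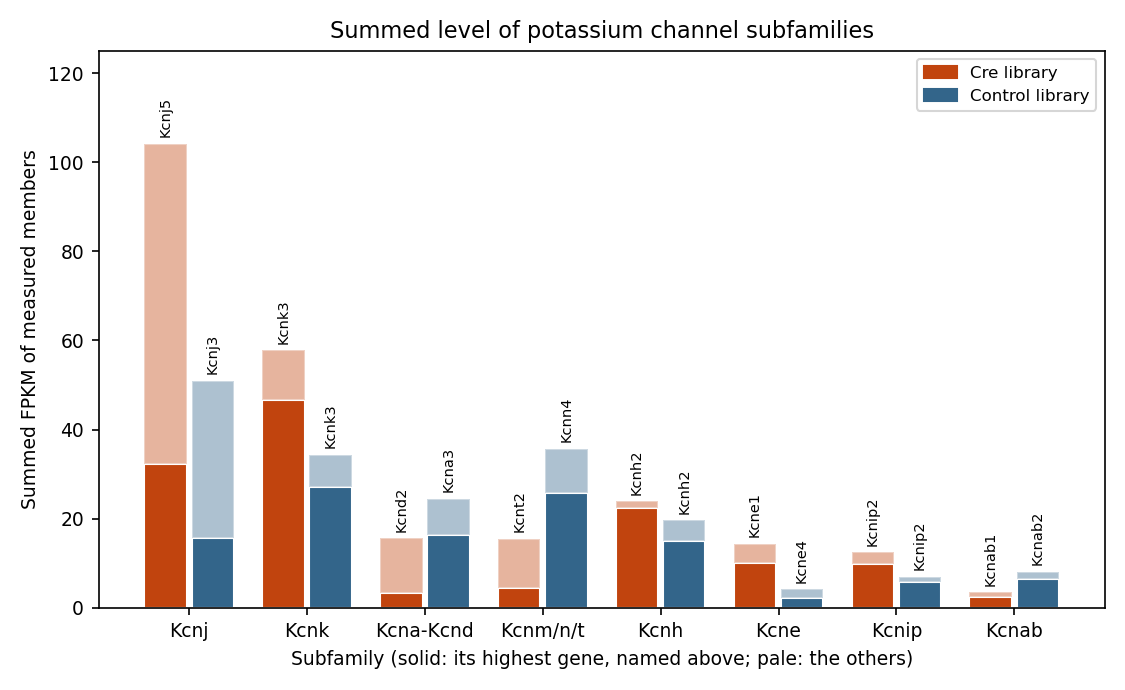
Summed FPKM of the measured members of 8 subfamilies in the Cre library (orange) and the control library (blue), with the highest gene solid and named and the others pale. The Kcnj sum is 104 against 50.9 FPKM, and the leading gene of the Kcna-Kcnd and Kcnm/n/t sums in the control library, Kcna3 and Kcnn4, is not the leading gene in the Cre library.

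Leak channels were led by Kcnk3, an acid-sensitive channel of the atrium, at 46.7 FPKM in the Cre library and 27.2 FPKM in the control library. Its log2 ratio was 0.76, and -0.28 after centring on cardiac muscle markers. It made up 80.9% of the Kcnk sum in the Cre library and 79.2% in the control library. Kcnk1, a weak inward-rectifying leak channel, had 3.32 FPKM in the Cre library and 0.982 FPKM in the control library, giving a log2 ratio of 1.12. Kcnk12, which gives little current when expressed alone, had 1.99 FPKM in the Cre library and 0.417 FPKM in the control library, giving a log2 ratio of 1.08. These 2 genes passed 2-fold, and neither did with a pseudocount of 5 FPKM or after the centring. The Kcnk3 locus overlaps Gm9899, at 5.22 FPKM in the Cre library and 2.70 FPKM in the control library. The stretch-sensitive Kcnk2 and another leak channel gene, Kcnk6, had log2 ratios of 0.17 each. They had 1.66 and 2.56 FPKM in the Cre library and 1.37 and 2.15 FPKM in the control library. Kcnk5, an alkaline-activated channel, was the one measured leak channel below equal expression before centring, with 1.52 FPKM in the Cre library and 2.23 FPKM in the control library.

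Kcnrg encodes no channel subunit but a protein named for its effect on Kcna channels. It had 12.8 FPKM in the Cre library and 4.03 FPKM in the control library, giving a log2 ratio of 1.45. Its locus overlaps Trim13, at 7.35 FPKM in the Cre library and 7.76 FPKM in the control library, and Dleu2, at 3.09 and 8.37 FPKM, so its reads may be shared. In the authors' deposited table the 8 genes past 2-fold with a p-value of 0.05 or more, Kcnrg and Kcnj11 among them, lay between 0.0736 and 0.584.

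The 27 members under the minimum included Kcna2, Kcna4, Kcna6, Kcna7, Kcnab3, Kcnc4, Kcnd1, Kcne1l, Kcne2, Kcnf1, Kcnh1, Kcnh7, Kcnh8, Kcnip3, Kcnj10, Kcnj14, Kcnk4, Kcnk7, Kcnk13, Kcnma1, Kcnn3, Kcnq1ot1, Kcnq5, Kcns3 and Kcnv2. They lay between 0.0565 and 1.23 FPKM. Closest to the minimum were Kcns3 and Kcna2 below it, with means of 0.984 and 0.960 FPKM, and Kcnn2 and Kcnk12 above it, with means of 1.10 and 1.20 FPKM. Over all 67 rows the median log2 ratio was 0.30.

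Position and transcript length were set beside the ratios. By the loci of the deposited table, 9 pairs of members lie within 500 kb of each other, and in 1 of them, Kcna5 and Kcna1 on chromosome 6, were both genes measured, at log2 ratios of 0.81 and 0.77. Kcna3 and Kcna2 on chromosome 3, 63.4 kb apart, were at -3.92 and -0.40. Across the 40 genes Spearman's rho of the log2 ratio with transcript length was -0.037, against 0.027 over 13178 measured genes with a length, given as a description.

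Genes that work with potassium channels were read from a list of 38, of which 29 were measured. At least 2-fold higher were 6 and lower were 2, where 6.08% and 10.4% of all measured genes were. The median log2 ratio was 0.08. These ratios are uncentred, and the centring on cardiac muscle markers lowers every ratio by 1.03. Chrm2, the muscarinic receptor that opens the Kcnj3 and Kcnj5 channel through G protein subunits, had 34.9 FPKM in the Cre library and 10.1 FPKM in the control library. Adora1, the adenosine receptor coupled to the same channel, had 7.08 FPKM in the Cre library and 2.67 FPKM in the control library. The others that were higher were Abcc8, Abcc9, Lrrc26, which activates the large calcium-activated channel, at 8.59 FPKM in the Cre library and 2.91 FPKM in the control library, and the anchoring protein Akap5, at 1.80 and 0.325 FPKM. Those lower were the scaffold Dlg4, at 3.54 FPKM in the Cre library and 8.70 FPKM in the control library, and the inhibitory G protein subunit Gnai3, at 35.2 and 76.5 FPKM. Hcn2, a related channel of pacemaker currents, had 1.66 FPKM in the Cre library and 0.951 FPKM in the control library.

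Other cation channel families had medians of similar size, and no difference between families was tested. Among 11 measured calcium channel subunit genes 3 were higher and 0 lower, with a median log2 ratio of 0.60. Among 5 measured sodium channel subunit genes 1 was higher and 1 lower, with a median of 0.55. Over all measured genes 6.08% were higher and 10.4% lower. These counts and medians are uncentred, and the centring on cardiac muscle markers lowers every ratio by 1.03. All 16 cardiac muscle markers lay above equal expression before centring, with a median of 1.03 and a summed level of 26093 FPKM in the Cre library and 17201 FPKM in the control library. Smooth muscle, endothelial, fibroblast, neuron, Schwann cell, adipocyte and skeletal muscle markers had medians between 0.31 and 0.77, and the macrophage and white blood cell markers had -0.13. The 9 measured sinoatrial node markers had a median of 0.46. The part of these cell types in the potassium channel values was not tested.

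**Figure D5:**
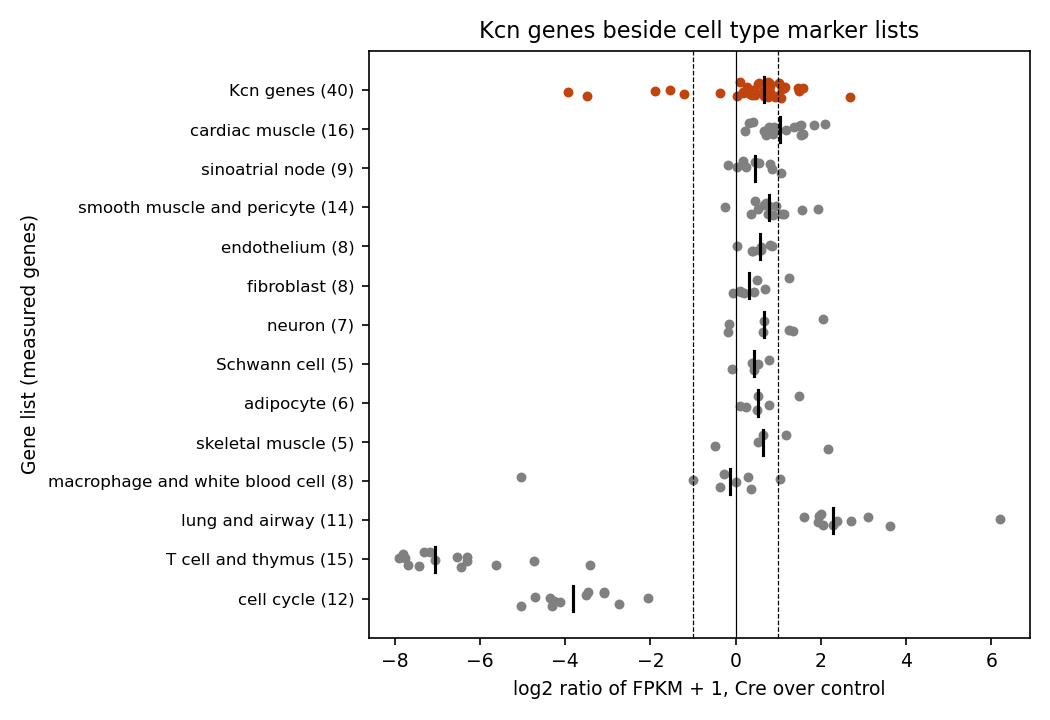
Log2 ratio of FPKM + 1, Cre over control, of each measured gene (points) with the list median (black bar) for the Kcn genes and 13 marker lists, the number of measured genes in brackets. On this uncentred scale the Kcn genes have a median of 0.66, against 1.03 for cardiac muscle and -7.05 for T cell and thymus markers, and the smooth muscle list shares Kcnmb1 and Kcnj8 with the Kcn genes.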

How the data were processed

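RNA of 7 sinoatrial node samples was sequenced, and the deposited table holds 2 of them. Reads were processed with TopHat, Bowtie and Cufflinks on mm9, per the submitters' processing notes. Versions, strand and library scaling were not stated. Deposited values were read as FPKM from the column layout, which is that of Cufflinks output, per the file headers. Beside them the authors give a log2 fold change, a score of their test, a p-value and a q-value. Library names in the table were matched to sample titles.

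Of 15967 rows, 2 without a completed comparison were left out, as were 11 measured small-RNA rows by RefSeq biotype, so 13408 genes reached the minimum mean of 1 FPKM. Log2 ratios used a pseudocount of 1 FPKM (Python 3.11.15, pandas 2.3.3), checked on simulated data. Read depth is unknown: the most frequent FPKM ratio of Cre to control was 0.824, in 32 genes, which would give a tentative relative depth of 1.21 but no absolute counts. FPKM divides up a library, so abundant transcripts lower all other values in it. Genes that share a locus can share reads. Genotypes were not tested, having 1 library each.

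Measured Kcn genes were named, except 1 that is not reported here; those past 2-fold and the 10 highest were described in full. Members, gene lists, motifs and comparisons were chosen with earlier results of these data known. Alternatives were pseudocounts of 0.1 and 5 FPKM, the same upper quartile, TPM plus 1, the scaling and pseudocount parts of TPM apart (chosen after seeing the data), centring on cardiac muscle markers, no minimum or 5 FPKM, and a 1.5-fold threshold. Coordinates of genes are mm9 as the table gives them.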

Additional observations from a re-analysis of the deposited data

How the results depend on the processing

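No paired analysis was possible because each genotype had 1 library, and for the same reason no replicate could be left out. The 9 higher and 5 lower Kcn genes became 16 and 5 with a pseudocount of 0.1 FPKM, 2 and 2 with 5 FPKM, 15 and 5 in TPM plus 1, 12 and 5 with the same upper quartile, 1 and 6 after centring on cardiac muscle markers, 4 and 2 at a mean of at least 5 FPKM (14 genes), and 21 and 5 at 1.5-fold. TPM plus 1 also lowers the pseudocount; of its parts, added after seeing the data, equal totals alone gave 9 and 5, and a pseudocount of 0.5 FPKM alone gave 12 and 5. Without the 8 measured members that share a locus, an alternative chosen after seeing the data, they were 7 and 3, and without Kcnrg, also chosen then, 8 and 5. Their median log2 ratio of 0.66 became 0.77 with the pseudocount of 0.1 FPKM, 0.32 with 5 FPKM, 0.83 with the same upper quartile, 0.77 in TPM, -0.37 after the centring, 0.30 with no minimum (67 genes) and 0.79 at 5 FPKM. Over all genes the 815 higher became 1262, 238, 1297, 1104, 49, 449 and 2226 with pseudocounts of 0.1 and 5 FPKM, the same upper quartile, TPM plus 1, the centring, the minimum of 5 FPKM and the 1.5-fold threshold. The 1397 lower became 805, 7486 and 2947 with the pseudocount of 5 FPKM, the centring and the 1.5-fold threshold. The median of all genes became 0.13 with the same upper quartile and -1.10 after the centring. Kcne1, Kcna3 and Kcnn4 kept their side of 2-fold in all 7 settings that recompute single genes at that threshold. These settings rework the same 2 values of each gene and add no further measurement. Kcne1 was under 1 FPKM in the control library and Kcna3 in the Cre library. Kcnj5 turned to -0.017 after the centring, which by construction lowers every ratio by 1.03. FPKM are not counts, so the depth behind the weak genes, 26 of 40 under 5 FPKM, is unknown.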
